A study of Mus musculus with 6 samples.

Results

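The genes described here encode the proteins of the mitochondrial ribosome. They were taken as every row whose symbol is Mrpl or Mrps followed by a number, which gave 76 of the 22692 gene rows in each table: 47 named for the large subunit (Mrpl) and 29 named for the small subunit (Mrps). RNA was sequenced from whole eyes, taken from mice of the inbred strain C57BL/6J 9.0 h or 1.5 h after light onset. Every library at 9.0 h and every library at 1.5 h was a pool of total RNA from 5 female mice aged 4 weeks, with poly(A) RNA isolated and random primers used for cDNA, and the labels name no mutation or treatment. There were 3 libraries at 9.0 h and 3 at 1.5 h. Nothing in the labels tells if libraries of the same time came from separate animals, so p-values measure only how these libraries vary, and that variation may be technical.

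Mitochondria keep a small genome of their own, and its messenger RNAs, all for subunits of the respiratory chain and ATP synthase, are translated by a dedicated ribosome inside the organelle. Its RNAs are made from mitochondrial DNA, but every one of its proteins is encoded in the nucleus, made in the cytosol and imported. Some of these proteins descend from bacterial ribosomal proteins and others are found only in mitochondria. Photoreceptors, which make up most of the retina, hold dense clusters of mitochondria in their inner segments. In structures of the mammalian mitochondrial ribosome Mrps18a and Mrps30 sit in the large subunit despite their names, and Mrps36 is now known as a component of the 2-oxoglutarate dehydrogenase complex. The symbols were followed here, so these genes are counted with the small subunit.

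Promoters of many such genes are known to carry sites for nuclear respiratory factor NRF1, for GABPA (an ETS family factor also called NRF2) and for YY1. RefSeq promoter sequence (GRCm38.p6, from 250 bases before to 50 bases after the start of the gene) was at hand for 67 of the 76 genes, 41 of the large and 26 of the small subunit. Shares of tested genes and of all genes are over those with promoter sequence, 9561 and 27025. A gene was counted if any of its promoter windows matched. The letters CCGGAAG, an ETS core, were found on either strand in 24 of the 67 genes (35.8%), against 18.3% of tested genes and 9.93% of all genes. AAGATGGCG, the YY1 core, was present in 8 of the 67 (11.9%), against 3.31% of tested genes and 1.64% of all genes. GCGCATGC, part of the NRF1 palindrome, was also present in 8 (11.9%), against 5.73% of tested genes and 3.05% of all genes. Of these 8, 7 belonged to the large subunit. The shares of CCAAT (40.3%, against 42.7% of tested genes), the E-box letters CACGTG that clock factors can bind (7.46%, against 11.8%) and TATAAA (7.46%, against 9.26%) were below those of the tested genes. The ETS, YY1 and NRF1 letters each contain CG. Promoter windows of members had a median of 21 CG pairs and a GC content of 58.3%. The medians were 20 and 60.7% for tested genes, and 7 and 52.7% for all genes. The part of this composition in the shares was not tested. A match shows letters in a window, not a bound site. No motif searched contains another.

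A few of these promoters are shown because they hold the letters named above. Each runs 5′ to 3′ on the strand of the gene from 100 bases before the start to 30 bases after it, and capitals mark those letters on either strand. Mrpl32, at chr13:14613008-14613137 on the minus strand, held the NRF1 letters at several places, and in Mrpl22, at chr11:58171564-58171693 on the plus strand, NRF1 and ETS letters stood close together. Mrpl22, with a bacterial counterpart, had 5.65, 8.01 and 9.53 RPKM (reads corrected for transcript model length and depth) at 9.0 h, against 6.15, 6.85 and 6.69 RPKM at 1.5 h, and the times overlapped. Mrps26 (chr2:130563657-130563786, plus strand) and Mrps22 (chr9:98601650-98601779, minus strand) both held the ETS letters, and they lay at opposite ends of the fold changes in the small subunit. Mrps18a (chr17:46110904-46111033, plus strand) held ETS letters upstream and YY1 letters at the start.
Mrpl32: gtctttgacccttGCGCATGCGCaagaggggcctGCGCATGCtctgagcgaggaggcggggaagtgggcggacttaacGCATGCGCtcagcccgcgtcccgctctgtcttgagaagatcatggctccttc
Mrpl22: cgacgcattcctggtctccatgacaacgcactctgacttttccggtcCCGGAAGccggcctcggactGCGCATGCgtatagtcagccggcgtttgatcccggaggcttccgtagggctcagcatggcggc
Mrps26: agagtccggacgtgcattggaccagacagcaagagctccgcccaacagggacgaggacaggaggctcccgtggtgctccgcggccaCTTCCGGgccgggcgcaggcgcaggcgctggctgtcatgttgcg
Mrps22: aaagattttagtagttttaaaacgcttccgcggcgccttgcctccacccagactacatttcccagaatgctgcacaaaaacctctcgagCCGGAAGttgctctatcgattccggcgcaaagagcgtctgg
Mrps18a: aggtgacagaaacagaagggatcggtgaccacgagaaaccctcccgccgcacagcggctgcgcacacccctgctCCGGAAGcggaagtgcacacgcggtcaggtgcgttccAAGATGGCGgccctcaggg

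The 24 tested genes with the ETS letters had a median log2 fold change (9.0 h minus 1.5 h, on log2(RPKM + 0.1)) of 0.19, with 16 above 0, and the 41 that did not had a median of 0.12, with 31 above 0. In 20 of the 67 promoters (29.9%) another gene started on the opposite strand within 300 bases upstream, against 14.2% of tested genes. Mrpl46 and Mrps11 form such a pair, a large and a small subunit gene read away from each other. Mrps11 had 18.4, 17.7 and 23.0 RPKM at 9.0 h, against 18.1, 17.3 and 18.1 RPKM at 1.5 h, and Mrpl46 had 16.7, 20.8 and 23.5 RPKM at 9.0 h, against 19.5, 19.5 and 19.3 RPKM at 1.5 h. Both genes were highest in replicate 3 of 9.0 h, and for both the times overlapped. Psma2, a proteasome subunit that starts opposite Mrpl32, had 38.7, 48.4 and 49.3 RPKM at 9.0 h, against 36.4, 84.4 and 56.3 RPKM at 1.5 h. Its log2 fold change was -0.30 ± 0.26 (SE), against 0.36 ± 0.27 for Mrpl32, and neither passed the test.

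The libraries held 31892335, 30198962 and 24114258 reads at 9.0 h and 29044219, 12747556 and 13051557 reads at 1.5 h, of which 88.7% to 88.9% at 9.0 h and 77.7% to 86.1% at 1.5 h lay in genes. Replicate 1 of 1.5 h had the lowest share. The defining markers of rods, lens, cornea, pigment epithelium and bipolar cells were detected in every library. Lens markers summed to 92959 to 107501 RPKM at 9.0 h, against 63421 to 88372 RPKM at 1.5 h, and skeletal muscle markers to 1134 to 1315 RPKM, against 585 to 1072 RPKM, both lowest in replicate 1 of 1.5 h. Blood markers summed to 375 RPKM in replicate 3 of 1.5 h and to 43.7 to 120 RPKM in the other libraries, with 2 of the 4 at 0 throughout. Y-linked genes summed to 1.59 RPKM in replicate 3 of 1.5 h and to 0 elsewhere, which goes against the label of a female pool for that library. In a whole eye, fewer cells of a type and less RNA per cell cannot be told apart.

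Mitochondrial ribosomal protein transcripts were detected in every library, most of them at moderate levels. The mean RPKM over 6 libraries had a median of 19.7 over the 46 tested large subunit genes (range 2.25 to 58.3) and of 16.5 over the 28 tested small subunit genes (3.2 to 43.9), against 8.29 over all 13490 tested genes, those that reached 1 RPKM in at least 3 of the 6 libraries. Summed over all members, the large subunit reached 1007, 1151 and 1183 RPKM at 9.0 h, against 920, 1116 and 1001 RPKM at 1.5 h. The small subunit reached 507, 558 and 598 RPKM at 9.0 h, against 444, 545 and 487 RPKM at 1.5 h. The ratio of the large to the small sum stayed between 1.98 and 2.06 at 9.0 h and between 2.05 and 2.07 at 1.5 h, so the sums of the subunits moved together from library to library. The sum over all genes of the table was lowest in replicate 1 of each time as well. It was 501906, 546836 and 541816 RPKM at 9.0 h, against 393433, 484249 and 490387 RPKM at 1.5 h. The reads behind these sums ranged from 30987 to 37899 at 9.0 h and from 14411 to 29562 at 1.5 h for the large subunit, and from 15108 to 18061 at 9.0 h and from 6786 to 13871 at 1.5 h for the small.

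**Figure D1:**
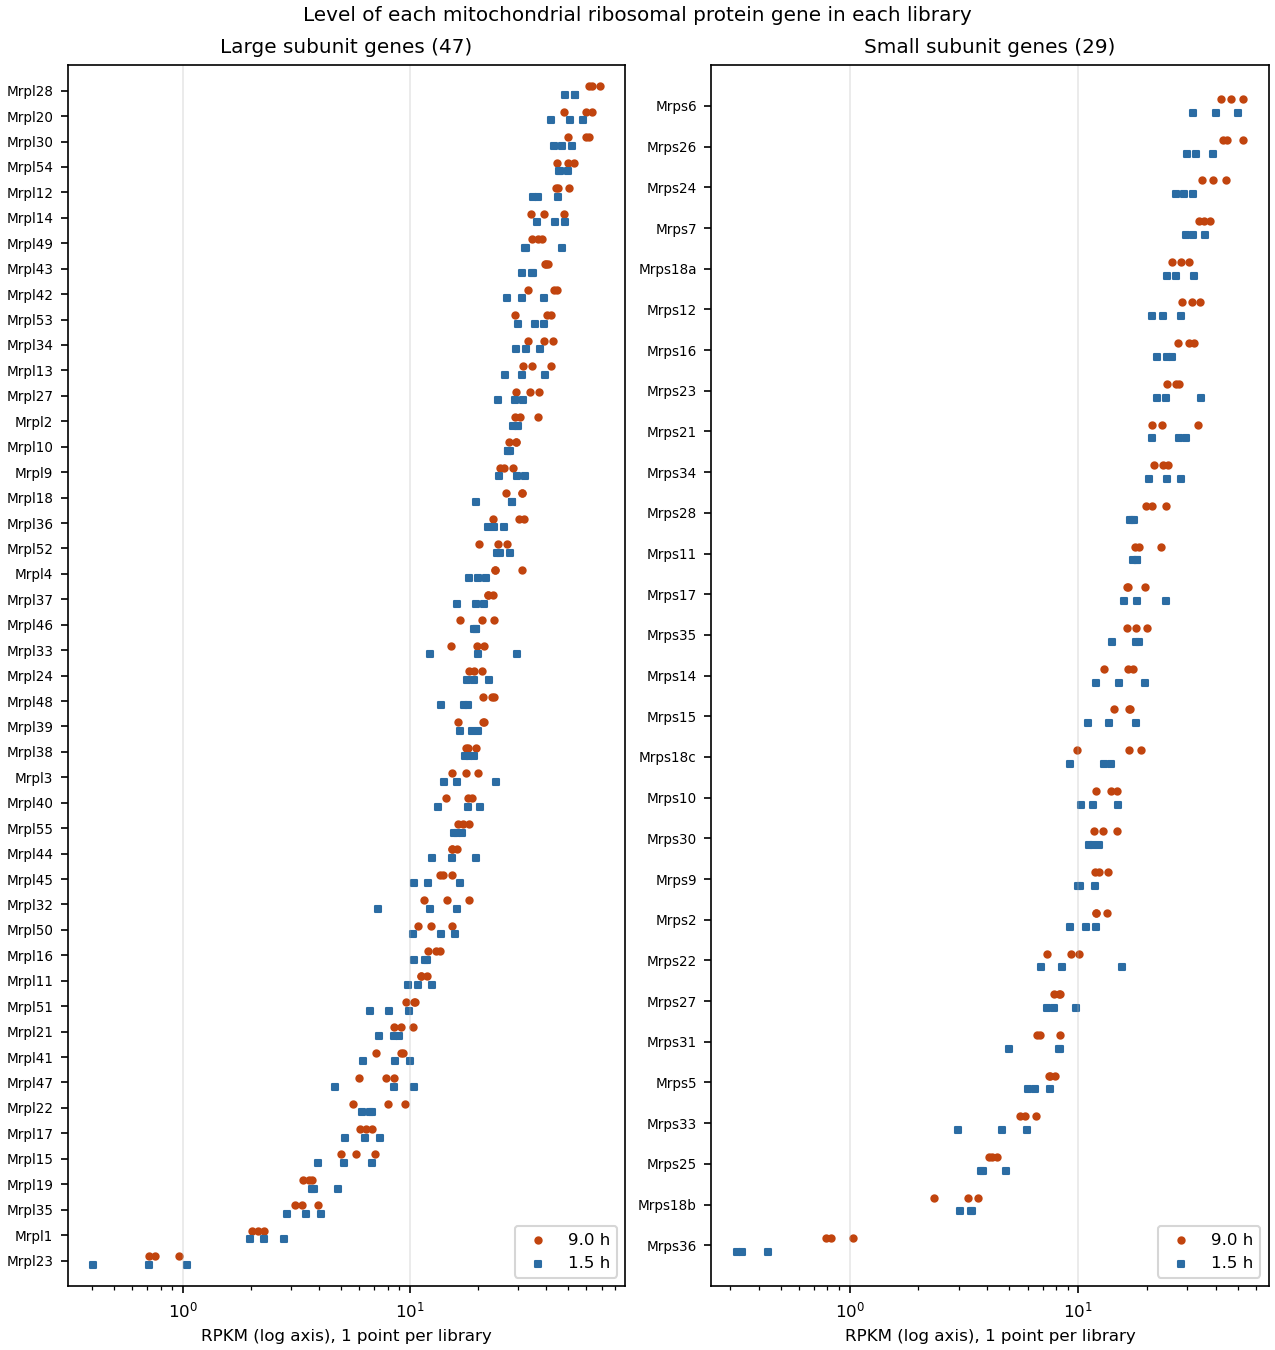
RPKM (log axis) of each of the 47 large and 29 small subunit genes, 1 point per library, with the 3 libraries at 9.0 h as circles above and the 3 at 1.5 h as squares below on each row. Genes are ordered by their mean over 6 libraries, from Mrpl28 and Mrps6 at the top to Mrpl23 and Mrps36 at the bottom, and for most genes the points of the times overlap.

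Between 9.0 h and 1.5 h, 0 of the 74 tested genes passed the test in either direction (limma across all tested genes, Benjamini-Hochberg adjusted p of 0.05, two-sided), against 30 of 13490 genes (0.222%). The lowest adjusted p was 0.27 in the large and 0.286 in the small subunit, and with limma's voom on the recovered reads 0 members passed as well. The calls depended on replicate 1 of 1.5 h. Without it, 4 members passed the test, all higher at 9.0 h: Mrpl4 (log2 fold change 0.45, limma adjusted p = 0.0465), Mrpl48 (0.54, limma adjusted p = 0.0136), Mrps24 (0.49, limma adjusted p = 0.0281) and Mrps26 (0.57, limma adjusted p = 0.00878). In that fit 1245 of 13490 genes passed (9.23%), against 30 with all libraries, and 4 members of 74 is below that share. Leaving out any of the other 5 libraries gave 0 members. At an unadjusted limma p under 0.05 there were 8 of 74 (10.8%), 3 large and 5 small, against 11.1% of tested genes, and these 8 were all higher at 9.0 h, where the share of all genes higher was 6.47%. In 11 genes every library at 9.0 h lay above every library at 1.5 h, 6 of 46 in the large (13.0%) and 5 of 28 in the small subunit (17.9%), against 9.78% of tested genes. No member lay below in every library, against 8.41% of tested genes.

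The large subunit had a median log2 fold change of 0.08 (range -0.19 to 0.46) with 33 of 46 above 0, and the small subunit 0.15 (range -0.13 to 0.46) with 21 of 28 above 0, against a median of -0.00 and 49.4% above 0 over all tested genes, while scaling to reads in genes turned the large subunit median to the other sign. With that scaling the medians were -0.02 and 0.04 with 22 and 17 above 0, and the median of all tested genes moved to -0.10, so that the distance to it stayed the same. The medians also moved with single libraries. Without replicate 1 of 1.5 h the medians were 0.04 and 0.08, and without replicate 2 of 1.5 h they were 0.20 and 0.21. Without replicate 3 of 1.5 h, the library with Y-linked and blood RNA, they were 0.10 and 0.16. Without replicate 1 of 9.0 h the large subunit median was 0.18, and without replicate 3 of 9.0 h it was 0.04 in the large and 0.09 in the small subunit. No test was made over the genes together, since they share the same 6 libraries.

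**Figure D2:**
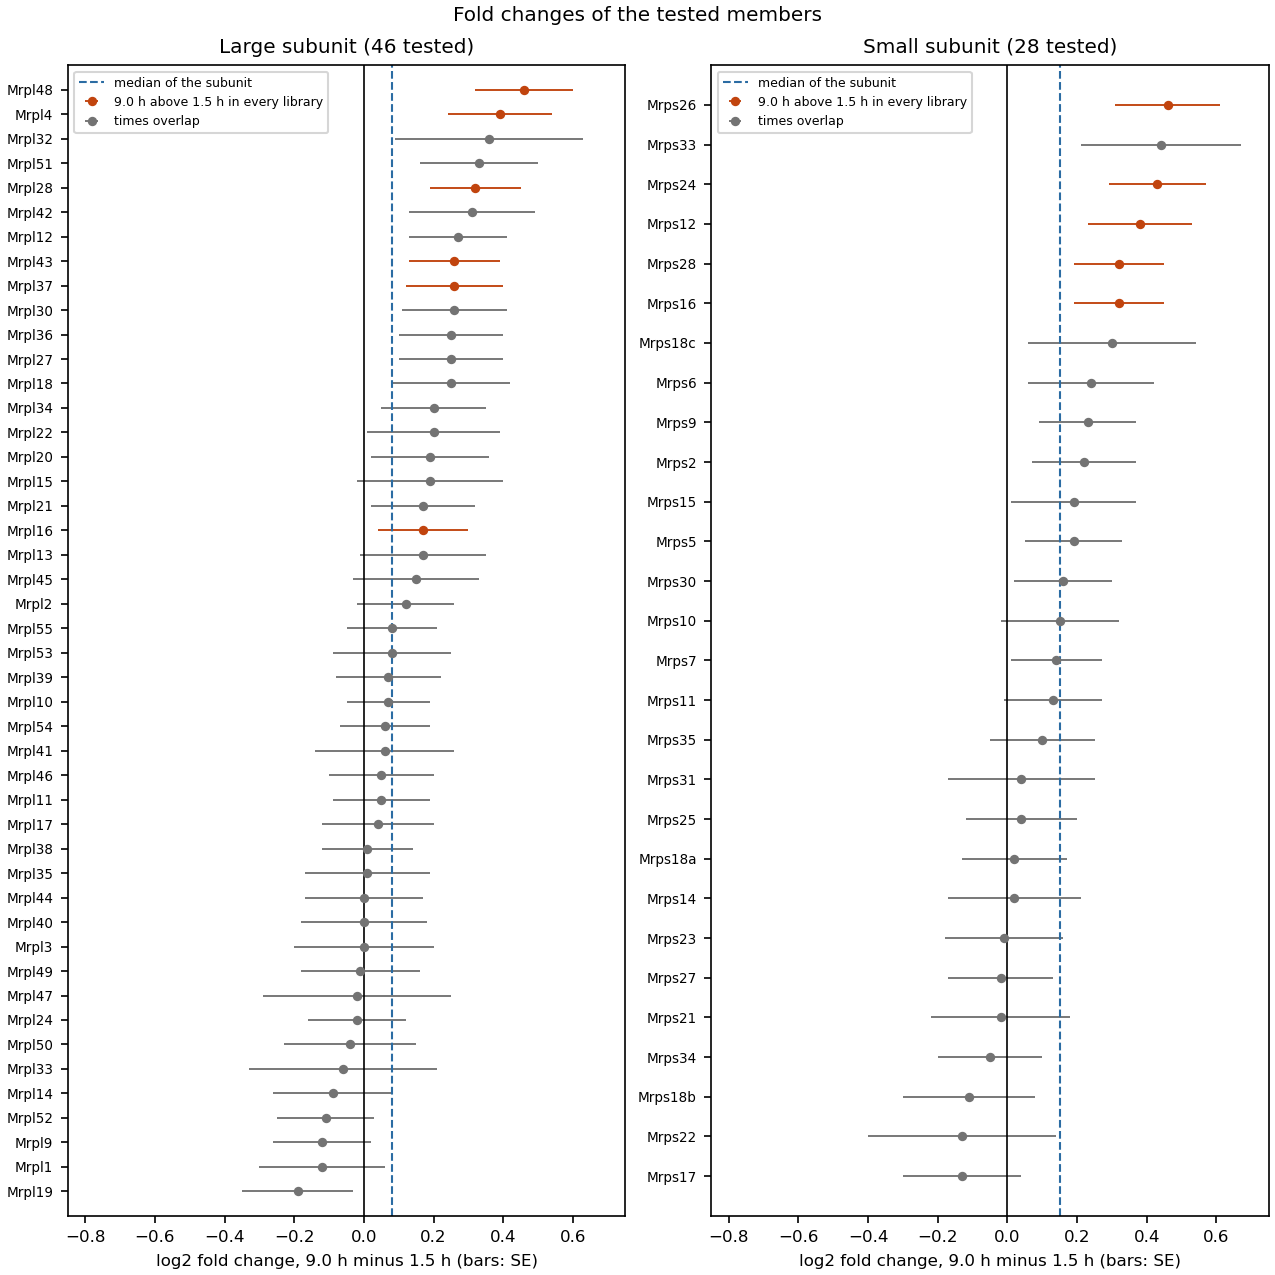
Log2 fold change (9.0 h minus 1.5 h, on log2(RPKM + 0.1)) with its SE for the 46 large and 28 small subunit genes tested, from 3 libraries at 9.0 h and 3 at 1.5 h. Coloured points are the 6 large and 5 small subunit genes whose libraries did not overlap between times, and the dashed lines are the subunit medians of 0.08 and 0.15, of which the large one turned to -0.02 when scaled to reads in genes.

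Genes with a bacterial counterpart and genes found only in mitochondria gave the following medians, with all tested genes at -0.00. In the large subunit the 28 with a counterpart had a median of 0.17 (20 above 0) and the 17 specific to mitochondria 0.06 (12 above 0), with Mrpl55 placed in neither. In the small subunit the 18 with a counterpart had a median of 0.19 (15 above 0) and the 10 specific to mitochondria 0.04 (6 above 0). Scaled to reads in genes, the medians with a counterpart were 0.07 (large) and 0.09 (small). With that scaling the mitochondria-specific medians turned to -0.04 (large) and -0.06 (small), and all tested genes were at -0.10. Without replicate 1 of 1.5 h the medians were 0.06 with a counterpart and 0.01 specific to mitochondria in the large subunit, and 0.12 and -0.07 in the small, where 3 of the 10 specific genes were then above 0. The ranges overlapped widely, from -0.19 to 0.39 and -0.11 to 0.46 in the large subunit and from -0.13 to 0.43 and -0.13 to 0.46 in the small subunit, and the difference was not tested.

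In the large subunit the most abundant transcript was that of Mrpl28, a counterpart of a bacterial protein. It had 61.8, 63.8 and 68.8 RPKM at 9.0 h, against 48.2, 53.5 and 53.7 RPKM at 1.5 h, and the times did not overlap. Its log2 fold change was 0.32 ± 0.13 (SE), with a limma adjusted p of 0.398. Mrpl20, which in bacteria binds the ribosomal RNA early in assembly, had 47.8, 63.7 and 59.9 RPKM at 9.0 h, against 42.0, 57.7 and 50.8 RPKM at 1.5 h. Mrpl30, also with a bacterial counterpart, had 49.6, 61.6 and 59.6 RPKM at 9.0 h, against 43.3, 51.9 and 47.0 RPKM at 1.5 h. Mrpl54, which has no bacterial counterpart, had 44.5, 49.6 and 53.2 RPKM at 9.0 h, against 45.3, 49.7 and 45.7 RPKM at 1.5 h. Replicate 1 was the lowest library within each time for each of these genes, and the times overlapped in all but Mrpl28. At 9.0 h each library of Mrpl28 lay above each library of Mrpl30 and Mrpl54, while its values overlapped those of Mrpl20, and the values of Mrpl20, Mrpl30 and Mrpl54 overlapped. Mrpl12, which forms the flexible stalk that recruits translation factors, had 44.9, 44.2 and 50.5 RPKM at 9.0 h, against 44.8, 35.1 and 36.6 RPKM at 1.5 h, and here replicate 1 was the highest library of 1.5 h.

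The gene with the lowest p in the large subunit was Mrpl48, a mitochondria-specific protein. It had 23.0, 21.0 and 23.6 RPKM at 9.0 h, against 18.0, 17.3 and 13.8 RPKM at 1.5 h. The times did not overlap, and the log2 fold change was 0.46 ± 0.14 (SE), with a limma adjusted p of 0.27. A near-identical processed pseudogene exists, and its exons overlap Rab6a on the other strand, so its reads could be shared. Mrpl4, whose bacterial counterpart lines the tunnel through which the new protein leaves, had 23.7, 23.8 and 31.3 RPKM at 9.0 h, against 21.6, 19.9 and 18.2 RPKM at 1.5 h. Replicate 3 of 9.0 h stood above the rest, and the log2 fold change was 0.39 ± 0.15 (SE), with a limma adjusted p of 0.378. Without that library it was 0.26.

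Mrpl32, whose protein is trimmed by the m-AAA protease before it joins the ribosome, had 11.6, 18.2 and 14.6 RPKM at 9.0 h, against 7.26, 16.1 and 12.3 RPKM at 1.5 h. Here the times overlapped and replicate 1 was the lowest of each time. Its log2 fold change of 0.36 ± 0.27 (SE; limma adjusted p = 0.679) was 0.05 without replicate 1 of 1.5 h. Mrpl51, a mitochondria-specific protein, had 9.64, 10.6 and 10.5 RPKM at 9.0 h, against 6.66, 9.89 and 8.09 RPKM at 1.5 h, a log2 fold change of 0.33 ± 0.17 (SE; limma adjusted p = 0.497) that was 0.19 without replicate 1 of 1.5 h. It has a near-identical processed pseudogene. Among the other large subunit genes, Mrpl16, Mrpl37 and Mrpl43 also had no overlap between times. Mrpl43 had 39.6, 40.5 and 39.8 RPKM at 9.0 h, against 31.1, 34.8 and 34.7 RPKM at 1.5 h, with an SD at 9.0 h of 1.23% of the mean. The log2 fold changes of Mrpl16, Mrpl37 and Mrpl43 were 0.17, 0.26 and 0.26, with limma adjusted p of 0.698, 0.55 and 0.498, and that of Mrpl37 was 0.15 without replicate 1 of 1.5 h.

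The lowest fold change of the large subunit was that of Mrpl19, a counterpart of a bacterial protein at the subunit interface. It had 3.61, 3.71 and 3.40 RPKM at 9.0 h, against 3.78, 4.85 and 3.70 RPKM at 1.5 h, a log2 fold change of -0.19 ± 0.16 (SE; limma adjusted p = 0.731). Mrpl9, with a bacterial counterpart, had 25.0, 25.9 and 28.4 RPKM at 9.0 h, against 32.3, 29.6 and 24.8 RPKM at 1.5 h (-0.12 ± 0.14 SE; limma adjusted p = 0.804). Mrpl52, specific to mitochondria, had 20.3, 26.8 and 24.5 RPKM at 9.0 h, against 24.3, 24.9 and 27.7 RPKM at 1.5 h (-0.11 ± 0.14 SE; limma adjusted p = 0.828). In each of these genes the times overlapped. Single libraries moved these fold changes: Mrpl19 was at -0.06 without replicate 2 of 1.5 h, Mrpl9 at -0.04 without replicate 1 and -0.23 without replicate 3 of 1.5 h, and Mrpl52 at -0.00 without replicate 1 and -0.20 without replicate 2 of 9.0 h. Mrpl1, which in bacteria forms the mobile stalk beside the exit site for tRNA, was the lowest member tested, at 2.03, 2.28 and 2.14 RPKM at 9.0 h, against 1.99, 2.80 and 2.28 RPKM at 1.5 h (-0.12 ± 0.18 SE; limma adjusted p = 0.86). Its fold change was -0.23 without replicate 1 of 1.5 h and turned to 0.01 without replicate 2 of 1.5 h. Mrpl23, at the rim of the exit tunnel in bacteria, did not pass the filter. It had 0.754, 0.967 and 0.713 RPKM at 9.0 h, against 0.71, 0.404 and 1.05 RPKM at 1.5 h, on 3 to 17 recovered reads, and has a near-identical pseudogene that could hold part of its reads.

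In the small subunit the most abundant transcript was that of Mrps6, a counterpart of a bacterial protein of the platform. It had 42.2, 52.7 and 46.7 RPKM at 9.0 h, against 31.8, 49.9 and 40.0 RPKM at 1.5 h. The times overlapped, replicate 1 was the lowest and replicate 2 the highest of each time, and its exons overlap Slc5a3 on the same strand. Mrps7, a head protein beside the path of tRNA, had 33.7, 35.4 and 37.6 RPKM at 9.0 h, against 29.5, 35.7 and 31.8 RPKM at 1.5 h. The log2 fold changes of Mrps6 and Mrps7 were 0.24 ± 0.18 and 0.14 ± 0.13 (SE), with limma adjusted p of 0.682 and 0.758. Without replicate 1 of 1.5 h they were 0.07 and 0.08, and without replicate 2 of 1.5 h 0.40 and 0.21.

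Mrps26, a mitochondria-specific protein, had both a high level and the largest fold change of the small subunit. It had 44.5, 42.8 and 52.3 RPKM at 9.0 h, against 38.8, 29.9 and 32.6 RPKM at 1.5 h. The times did not overlap, and the log2 fold change was 0.46 ± 0.15 (SE; limma adjusted p = 0.286). It has a near-identical processed pseudogene and an antisense transcript over its exons. Mrps24, the counterpart of a bacterial protein at the entrance for messenger RNA, had 34.9, 38.8 and 44.4 RPKM at 9.0 h, against 31.7, 26.8 and 29.0 RPKM at 1.5 h. Again the times did not overlap, and the log2 fold change was 0.43 ± 0.14 (SE; limma adjusted p = 0.302). Its exons overlap those of Urgcp on the same strand. Mrps12, whose bacterial counterpart lies at the decoding centre, had 28.4, 31.4 and 34.2 RPKM at 9.0 h, against 23.4, 21.0 and 28.0 RPKM at 1.5 h. The lowest library at 9.0 h lay just above the highest at 1.5 h, and the log2 fold change was 0.38 ± 0.15 (SE; limma adjusted p = 0.382).

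Mrps16 and Mrps28 were the other small subunit genes without overlap. Mrps16, a counterpart of a bacterial protein with 2 near-identical pseudogenes, had 27.3, 30.4 and 32.2 RPKM at 9.0 h, against 24.3, 25.6 and 22.1 RPKM at 1.5 h (0.32 ± 0.13 SE; limma adjusted p = 0.415). Mrps28 had 19.7, 21.1 and 24.2 RPKM at 9.0 h, against 17.1, 16.9 and 17.6 RPKM at 1.5 h (0.32 ± 0.13 SE; limma adjusted p = 0.398). Mrps33, a small mitochondria-specific protein, had 5.55, 5.83 and 6.55 RPKM at 9.0 h, against 4.65, 5.97 and 2.99 RPKM at 1.5 h, so the times overlapped and the log2 fold change of 0.44 ± 0.23 (SE; limma adjusted p = 0.521) was 0.17 without replicate 3 and 0.66 without replicate 2 of 1.5 h. It has a near-identical pseudogene.

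Mrps22, a mitochondria-specific protein whose human gene is mutated in a mitochondrial cardiomyopathy, had 7.33, 10.1 and 9.32 RPKM at 9.0 h, against 6.86, 15.6 and 8.45 RPKM at 1.5 h. The highest and the lowest of its 6 values were both at 1.5 h, and its log2 fold change of -0.13 ± 0.27 (SE; limma adjusted p = 0.896) was 0.21 without replicate 2 of 1.5 h and -0.38 without replicate 1 of 1.5 h. Mrps17, with a bacterial counterpart, had 16.4, 19.5 and 16.5 RPKM at 9.0 h, against 15.8, 24.2 and 18.0 RPKM at 1.5 h (-0.13 ± 0.17 SE; limma adjusted p = 0.84), and it turned to 0.05 without replicate 2 of 1.5 h. Mrps34, specific to mitochondria, had 23.5, 21.5 and 24.7 RPKM at 9.0 h, against 20.4, 28.0 and 24.3 RPKM at 1.5 h (-0.05 ± 0.15 SE; limma adjusted p = 0.931), and its fold change turned to 0.06 without replicate 2 of 1.5 h. Replicate 2 of 1.5 h held the highest value of Mrps22, Mrps17 and Mrps34. It was the lowest library of 1.5 h for Mrps18b, the other gene among the most negative of the subunit.

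A single bacterial protein has the paralogues Mrps18a, Mrps18b and Mrps18c in mammals, which occupy different places in the ribosome. Mrps18a had 28.1, 25.7 and 30.4 RPKM at 9.0 h, against 24.5, 31.9 and 26.8 RPKM at 1.5 h. Mrps18c, which takes the place of the bacterial protein, had 9.87, 18.8 and 16.7 RPKM at 9.0 h, against 9.19, 13.9 and 13.0 RPKM at 1.5 h. Mrps18b had 3.66, 2.33 and 3.31 RPKM at 9.0 h, against 3.40, 3.05 and 3.42 RPKM at 1.5 h, and a near-identical pseudogene could hold part of its reads. The order of levels was Mrps18a, Mrps18c, Mrps18b in each of the 6 libraries, with no overlap between the paralogues. Their log2 fold changes were 0.02 ± 0.15, 0.30 ± 0.24 and -0.11 ± 0.19 (SE, in the order a, c, b), with limma adjusted p of 0.968, 0.71 and 0.88. That of Mrps18a was between -0.06 and 0.13 with a library left out. Mrps18c was at 0.58 without replicate 1 of 9.0 h and at 0.12 without replicate 2 of 9.0 h or replicate 1 of 1.5 h. Mrps18b was at -0.24 without replicate 1 of 9.0 h and turned to 0.08 without replicate 2 of 9.0 h.

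Mrps36, the lowest of all members and not a ribosomal protein by current knowledge, did not pass the filter. It had 0.832, 0.786 and 1.04 RPKM at 9.0 h, against 0.337, 0.438 and 0.321 RPKM at 1.5 h, on 19, 17 and 18 recovered reads at 9.0 h, against 7, 4 and 3 at 1.5 h. The times did not overlap, and in a fit with no filter its log2 fold change was 1.08 ± 0.22 (SE; limma adjusted p = 0.141). It has 4 near-identical processed pseudogenes, so reads could be split among copies.

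The spread between libraries exceeded counting error for most members. The median coefficient of variation was 10.7% at 9.0 h and 13.8% at 1.5 h, where counting alone would give medians of 3.94% and 5.15%, and the spread was above counting in 67 and 63 of 74 genes. The widest at 1.5 h were Mrps22 (45.3%), Mrpl33 (42.0%), Mrpl32 (37.4%) and Mrpl47 (37.4%), named after their values were seen. Mrpl33 had 15.2, 21.3 and 19.7 RPKM at 9.0 h, against 12.3, 29.6 and 19.9 RPKM at 1.5 h, and Mrpl47 had 5.97, 8.54 and 7.89 RPKM at 9.0 h, against 4.70, 10.5 and 8.52 RPKM at 1.5 h. In both, as in Mrps22 and Mrpl32, replicate 1 was the lowest and replicate 2 the highest library of 1.5 h.

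This ordering ran through the family. Replicate 1 was the lowest library of 9.0 h for 54 of the 74 genes and the lowest of 1.5 h for 53, and replicate 2 was the highest of 1.5 h for 55. For these orders within a time the shares over all tested genes were not computed. Over all 6 libraries, 47 of 74 genes were lowest in replicate 1 of 1.5 h, against 27.0% of all tested genes, and 28 of 74 were highest in replicate 3 of 9.0 h, against 12.1%. Another 26 of 74 were highest in replicate 2 of 1.5 h, close to the share of 33.7% over all tested genes. The median log2 deviation of a large subunit gene from its own mean was -0.09, 0.14 and 0.13 at 9.0 h, against -0.23, 0.11 and -0.05 at 1.5 h. For the small subunit it was -0.01, 0.11 and 0.16 at 9.0 h, against -0.20, 0.10 and -0.09 at 1.5 h. In both subunits replicate 1 of 1.5 h was thus the lowest, and replicate 2 of 1.5 h was about as high as replicates 2 and 3 of 9.0 h. The highest was replicate 2 of 9.0 h in the large and replicate 3 of 9.0 h in the small subunit. Replicate 1 of 9.0 h was at -0.09 in the large and at -0.01 in the small subunit. Replicate 1 of 1.5 h also had the lowest share of reads in genes (77.7%). Its lens, muscle, stroma, pigment epithelium, fat and blood marker sums were the lowest (stroma 1253 to 1602 RPKM at 9.0 h, against 698 to 1461 RPKM at 1.5 h). Its Mueller glia markers summed to 537 RPKM, the highest of any library. Rod markers summed to 11959 RPKM there (10719 to 12288 RPKM over all libraries) and bipolar cell markers to 110 RPKM (94 to 116 RPKM). Corneal epithelium and melanin sums were not lowest there either. The part of these in the result was not tested.

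Members were also split by the GC content of the transcript. This split was chosen after the values were seen and has no test. In the 25 genes of lowest GC (39.6% to 49.4%) the median log2 fold change was 0.04, with 15 above 0, and the times did not overlap in 1 gene, Mrpl16. In the 25 of middle GC (49.7% to 53.9%) it was 0.15, with 19 above 0 and no overlap in 1, Mrpl43. In the 24 of highest GC (54.0% to 61.3%) it was 0.19, with 20 above 0 and no overlap, higher at 9.0 h, in 9. Scaled to reads in genes, the medians were -0.06, 0.05 and 0.09, with all genes of those ranges at -0.18, -0.08 and -0.00. The step moved with single libraries: without replicate 2 of 1.5 h the medians were 0.20, 0.23 and 0.21, and without replicate 1 of 1.5 h they were -0.09, 0.07 and 0.14. Tested genes of the same GC ranges had medians of -0.08, 0.03 and 0.10, a step in the same direction as the member medians. Of these tested genes, 5.22%, 11.6% and 15.8% lay above in every library at 9.0 h, against 1 of 25, 1 of 25 and 9 of 24 members. The member counts did not rise evenly with these shares. The GC of all tested genes was that of the longest transcript, while that of members was from the transcript nearest in length, so the ranges are not fully alike. Replicate 2 of 1.5 h deviated by 0.23, 0.06 and -0.06 in the low, middle and high group, and by 0.20, 0.00 and -0.16 in all genes of those ranges. Replicate 1 of 1.5 h deviated by -0.31, -0.24 and -0.16 in the members, against -0.11, 0.02 and 0.10 in all genes of those ranges. With the library trends on GC and length removed, the medians of the low, middle and high group were 0.06, 0.10 and 0.04, and 0 members passed the test.

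**Figure D3:**
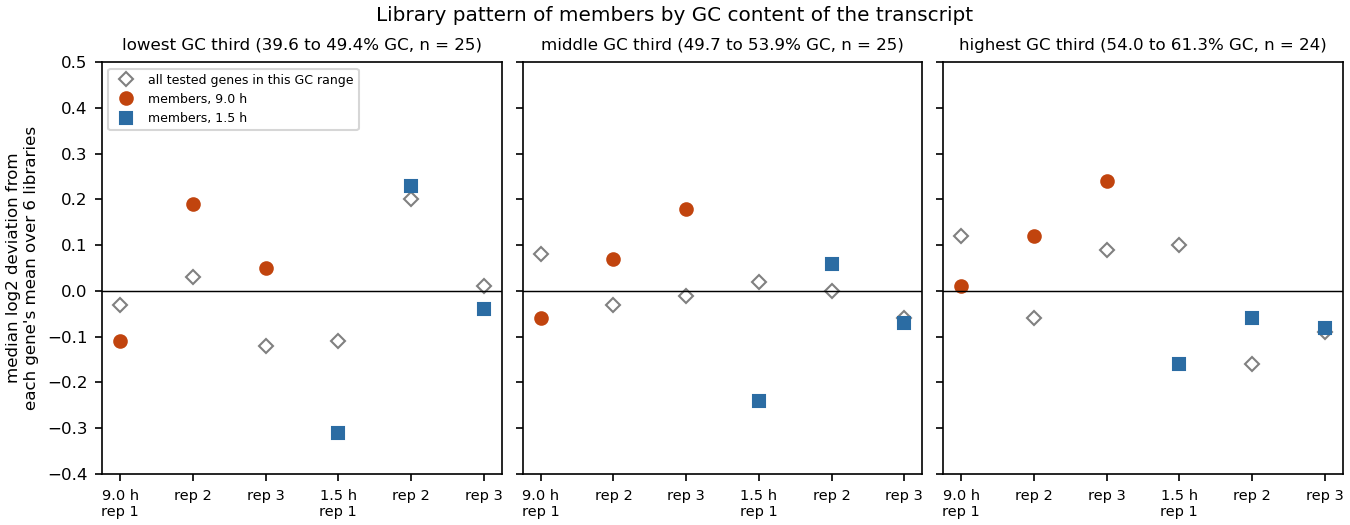
Median log2 deviation from the mean of each gene over 6 libraries, for members in the lowest (n = 25), middle (n = 25) and highest (n = 24) GC group and for all tested genes of the same GC range (open diamonds), with 9.0 h on the left and 1.5 h on the right of each panel. Replicate 2 of 1.5 h is at 0.23 in the low group and at -0.06 in the high group, and replicate 1 of 1.5 h is the lowest member point in every panel.

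The transcripts of the family were short, with a median model length of 1041 nucleotides in the large (412 to 6712) and 1060 in the small subunit (407 to 6065), against 2825 over all tested genes. Near-identical copies elsewhere in the genome, processed pseudogenes, were found for 17 of the 76 genes, and 32 overlap an exon of another gene, so reads of these could be split or shared. The strand setting of the counting is not given in the sources used here.

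Other genes of mitochondrial gene expression had medians between -0.05 and 0.09, or between -0.15 and -0.02 when scaled to reads in genes, and none passed the test with all libraries. Without replicate 1 of 1.5 h, Ndufab1 and Tufm passed as higher at 9.0 h (log2 fold changes 1.81 and 0.64), and Chchd1, Mterfd2, Hars2, Mterfd3 and Ppargc1a passed as lower (-0.58, -0.46, -0.48, -0.70 and -0.65). That is 1 or 2 genes in each list, in a fit where 9.23% of all tested genes passed. In the same fit the medians were 0.05 for ribosomal proteins under other symbols, -0.08 for assembly, -0.04 for translation factors, and 0.04 each for the synthetases and for DNA transcription and replication, so that the last 3 changed sign. Of 8 mitochondrial ribosomal proteins listed under other symbols the median log2 fold change was 0.09, with 6 above 0. Aurkaip1 had 59.9, 63.6 and 69.6 RPKM at 9.0 h, against 59.4, 58.1 and 56.1 RPKM at 1.5 h, and Ict1, a peptidyl-tRNA hydrolase built into the large subunit, had 41.1, 44.3 and 47.3 RPKM at 9.0 h, against 38.0, 56.2 and 38.4 RPKM at 1.5 h. Ndufab1, the mitochondrial acyl carrier protein that is also found on assembling ribosomes, had 7.13 ± 0.765 RPKM at 9.0 h, against 2.76 ± 1.38 RPKM at 1.5 h (SD, n = 3 each), a log2 fold change of 1.45 with a limma adjusted p of 0.104. It was named after its value was seen. The 21 genes of ribosome assembly and rRNA modification had a median of -0.01 (9 above 0), with Ngrn at 27.7 ± 2.11 RPKM at 9.0 h, against 29.5 ± 4.38 RPKM at 1.5 h (SD, n = 3 each), and the helicase Dhx30 at 23.0 ± 2.86, against 22.7 ± 3.69 RPKM.

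The 14 mitochondrial translation factors had a median of 0.05 (7 above 0). Oxa1l, the insertase that receives new proteins at the inner membrane, had 20.9, 20.3 and 20.9 RPKM at 9.0 h, against 21.2, 22.1 and 21.0 RPKM at 1.5 h, and the deformylase Pdf had 19.8, 21.2 and 18.7 RPKM at 9.0 h, against 18.9, 15.2 and 17.1 RPKM at 1.5 h. The 17 mitochondrial aminoacyl-tRNA synthetases, which charge tRNAs, had a median of -0.03 (7 above 0). Lars2 had the highest and most variable values, at 596, 507 and 556 RPKM at 9.0 h, against 1200, 300 and 827 RPKM at 1.5 h. The median level of the 17 genes was 5.36 RPKM. Copies or repeats of Lars2 were not searched for, so whether all these reads came from its messenger RNA was not tested. Iars2 had 18.0, 16.3 and 15.1 RPKM at 9.0 h, against 15.5, 14.8 and 14.6 RPKM at 1.5 h. The 16 genes of mitochondrial DNA transcription and replication had a median of -0.05 (6 above 0), with Esrra, a nuclear receptor that drives mitochondrial genes, at 15.2 ± 2.25 RPKM at 9.0 h, against 17.4 ± 5.07 RPKM at 1.5 h (SD, n = 3 each). Polg2, a subunit of the mitochondrial DNA polymerase, was at 15.0 ± 0.569 RPKM at 9.0 h, against 16.9 ± 3.27 RPKM at 1.5 h.

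Transcripts for proteins of the cytosolic ribosome had larger fold changes. They ranged from -0.29 to 2.76 in the large and from -0.66 to 2.95 in the small cytosolic subunit. Near-identical copies of these genes were not searched for. The 42 tested of the large cytosolic subunit had a median log2 fold change of 0.55 (35 above 0, 2 passing the test), and the 28 tested of the small cytosolic subunit 0.61 (26 above 0, 2 passing the test), against 0.08 and 0.15 for the mitochondrial subunits. Without replicate 1 of 1.5 h, 20 and 15 of these cytosolic genes passed, in a fit where 9.23% of all tested genes passed. Rpl29 had 78.0, 89.5 and 108 RPKM at 9.0 h, against 44.2, 47.1 and 44.1 RPKM at 1.5 h (1.01 ± 0.15 SE; limma adjusted p = 0.028). Rps19 had 122, 156 and 188 RPKM at 9.0 h, against 81.7, 58.9 and 60.2 RPKM at 1.5 h (1.21 ± 0.19 SE; limma adjusted p = 0.0408). The other 2 passing genes were Rpl21 and Rps4x. Rpl21 had 14.2, 18.8 and 18.3 RPKM at 9.0 h, against 4.4, 2.03 and 1.57 RPKM at 1.5 h (2.76 ± 0.31 SE, limma adjusted p = 0.0089). Rps4x had 145, 171 and 178 RPKM at 9.0 h, against 69.6, 82.1 and 47.6 RPKM at 1.5 h (1.34 ± 0.20 SE, limma adjusted p = 0.028). The highest log2 fold change of a tested mitochondrial ribosomal protein gene was 0.46, and the difference between the lists was not tested.

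**Figure D4:**
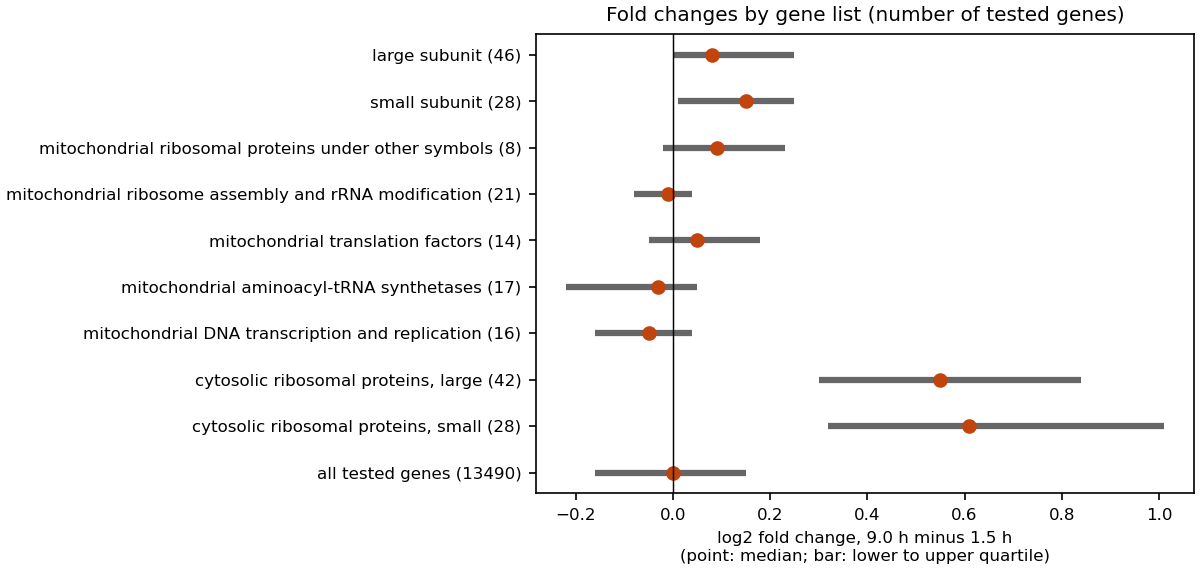
Median log2 fold change (9.0 h minus 1.5 h, points) and the range from the lower to the upper quartile (bars) for each gene list, with the number of tested genes in brackets. The mitochondrial ribosomal lists lie at 0.08 and 0.15 (the first at -0.02 when scaled to reads in genes, which also turns the lists at 0.09 and 0.05 to -0.02 and -0.05), and the cytosolic ribosomal lists at 0.55 and 0.61.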

How the data were processed

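The authors deposited 1 table per library with an RPKM value (reads corrected for gene length and library total) for each of 22692 gene symbols, in 3 libraries at 9.0 h and 3 at 1.5 h. The unit was taken from the values. Per the submitters' processing notes, GSNAP, HTSeq and the build mm9 were used; of their versions, the annotation and the strand setting, nothing is given in the sources used here.

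RPKM values fell on whole multiples of 1 read, which gave the library totals, model lengths and reads (tolerance 0.01 read) for 13489 of 13490 tested genes and all 76 members; at totals the data do not use, 0 of 76 members came out whole. A length is the smallest that makes the 6 values whole, so a true length could be a multiple of it. An annotated GENCODE length was nearest at 2 times the recovered length for Mrpl39, Mrpl47, Mrpl48, Mrpl51, Mrps7, Mrps14, Mrps16 and Mrps30. For Mrps5 and Mrps35 it was nearest at 3 times, and for Mrpl41 the nearest lay 1.64 log2 units away. The reads, counting error, model length and chosen transcript of these genes could be wrong. Counting error is that of these reads only.

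The 13490 genes that reached 1 RPKM in at least 3 libraries were tested with limma 3.58.1 in R 4.3.3 on log2(RPKM + 0.1), with trend and robust settings, 9.0 h minus 1.5 h, at a Benjamini-Hochberg adjusted p of 0.05 over all tested genes. Fold changes on this scale understate those of low genes. A permutation test of 3 against 3 libraries was not used for single genes. The GC groups of members used the GENCODE M21 transcript nearest in length to the model. For all tested genes, and in the fit with GC and length trends removed, the longest GENCODE M21 transcript was used. Copies came from blastn 2.17.0 (at least 95% identity over 200 nucleotides), and promoters from RefSeq.

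The members and lists were chosen with earlier results of these data known. Named were, in each subunit, the 4 genes highest in mean RPKM, the 4 largest positive and 4 largest negative fold changes among genes of at least 2 RPKM, the 2 lowest in mean, and the Mrps18 paralogues; in other lists, up to 2 called genes or else the 2 highest. Other genes were named after their values were seen. Alternatives covered the pseudocount, filter, scaling, GC and length, limma settings, replicate number, copies and each library left out.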

Additional observations from a re-analysis of the deposited data

How the results depend on the processing

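No member passed the test under any alternative except without replicate 1 of 1.5 h. With a library left out in turn, the count of members passing ranged from 0 to 4, the large subunit median from 0.039 to 0.201 and the small subunit median from 0.075 to 0.213; the cause was not tested. Over the planned settings of pseudocount, filter, scaling, GC and length, limma settings and copies left out, the medians lay between 0.037 and 0.120 (large) and between 0.116 and 0.155 (small). Settings added after seeing the data gave medians of 0.090 and 0.149 with voom on recovered reads, 0.106 and 0.139 with reads thinned to the shallowest library, and 0.080 and 0.145 with Mrps18a and Mrps30 moved to the large subunit. Scaling to reads in genes gave -0.023 and 0.043, with the median of all genes at -0.104. Of 198 values of 11 single genes under alternatives, 194 kept their side of the threshold, 4 gained a call and 0 reversed. These 11 genes all had positive log2 fold changes with all libraries, from 0.26 to 0.46. Genes with negative fold changes were not among them, and several of those turned sign with a library left out (Mrps22, Mrps17, Mrps18b, Mrps34 and Mrpl1 above). Over all genes the 30 calls became 141 with the replicate block, 86 with GC and length trends removed and 42 with voom. They became 15 each with median centring, quantile normalization and scaling to reads in genes, 19 with the filter of 5 RPKM, and 2 to 10 with a library of 9.0 h left out. Without replicates 1, 2 and 3 of 1.5 h they were 1245, 61 and 13.

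Deviations of same-numbered libraries from the mean of their time had correlations of 0.347, 0.484 and -0.215. Libraries of different numbers were not compared in this way, so these values cannot tell if replicate numbers pair the libraries. With the replicate block 0 members passed, and the medians were 0.080 and 0.145.

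Depth limits Mrpl23 and Mrps36, with 3 to 19 reads per library, and at 1.5 h replicates 2 and 3 had fewer reads than the other libraries.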
